A study of Capsella grandiflora and Capsella rubella and Capsella orientalis with 27 samples.

Results

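Expanding and maturing flower buds of Capsella rubella, a species that fertilises itself, were compared with the same stage of Capsella grandiflora, an outcrossing relative that needs pollen from another plant. The comparison used 6 of the 27 RNA sequencing libraries in the series, 3 of each species, chosen by their titles, and, after the 5 summary rows of each file were dropped, covered all 26521 gene identifiers listed in the count files. The other libraries were dividing flower buds and 10 day old seedlings of both species, and all 3 stages of Capsella orientalis, another selfing species. Per the labels' protocols, total RNA was made into TruSeq libraries and read as single short reads on an Illumina instrument. The labels give a species and a stage for each library and name no line, genotype, treatment or plant age for the buds, and separate plants are not stated for the 3 libraries of a group. All p-values below rest on the spread among libraries of the same group, pooled over all 27 libraries. That spread may thus be technical.

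Plants that turn to self-fertilisation often evolve a selfing syndrome, with smaller petals, less pollen and less scent and nectar than their outcrossing relatives. C. rubella is a textbook case, derived from an outcrossing ancestor like present-day C. grandiflora after the loss of self-incompatibility, the recognition system at the S locus by which the stigma rejects pollen of its own plant. Late bud development is the time when petals grow by cell expansion and pollen grains mature, so the genes active at this stage include those of the organs that differ most between such species.

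No gene names come with the identifiers in the files, so the genes are described here by their behaviour across stages. Markers of petals, anthers or pollen could not be looked up, and the labelled tissue was checked only through the stage groups described below. The groups were formed from contrasts among the 9 C. orientalis libraries. The libraries compared entered those contrasts only through the filter, scaling and spread that all 27 libraries share in the fit. A gene is called expanding-preferential where it was called at an adjusted p under 0.05 and at least 2-fold higher in C. orientalis expanding buds than in both of its other stages. Dividing-preferential and seedling-preferential genes were defined likewise. Genes of both bud stages were at least 2-fold above seedlings in each bud stage without a called 2-fold difference between the buds. Even genes stayed below a fitted 2-fold change in every pair of stages, a definition that also takes in genes at very low counts.

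The 6 libraries held 27.5 M to 40.9 M gene counts, with C. grandiflora spanning that whole range and C. rubella 32.5 M to 39.6 M. The first principal component of the 6 libraries separated the species and held 88.2% of the variance. The median absolute log2 difference over genes was 0.147 to 0.183 between C. grandiflora replicates and 0.0944 to 0.128 between C. rubella replicates, against 0.425 to 0.514 between libraries of different species. Reads outside genes made up 5.16% to 5.43% of listed reads in C. grandiflora and 5.45% to 5.62% in C. rubella, and multiply aligned reads 4.28% to 4.40% and 4.03% to 4.23%. Those narrow gaps do not exclude losses at single genes, because the identifiers have the form of C. rubella gene models and the share of reads that failed to align is unknown. A C. grandiflora read that differs from the gene model may not be counted, and a gene's own RNA level and such a loss cannot be told apart here.

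A majority of the genes measured differed between the species in expanding buds, most of them by less than 2-fold. Of 23186 genes that passed the filter on low counts, 13830 (59.6%) were called by edgeR's quasi-likelihood test, with a threshold of 0.05 on the p-value after Benjamini-Hochberg adjustment. Gene by gene, the CPM (counts divided by the scaled size of each library) of the 3 C. rubella libraries lay above all 3 of C. grandiflora for 8066 genes (34.8%) and below them for 7755 (33.4%). The balance of directions was close: 6998 genes (30.2%) were higher and 6832 (29.5%) lower in C. rubella, but it turned to 6147 higher and 7713 lower when libraries were scaled by RLE size factors instead of the trimmed mean of M-values (TMM). The median log2 fold over all tested genes was 0.01, with an interquartile range of -0.48 to 0.46, and it moved to -0.05 under RLE. The median absolute log2 fold was 0.47 here, against 0.39 for dividing buds and 0.35 for seedlings, a description that was not tested. The median standard error of a log2 fold was 0.14.

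Sorted by size, 5530 of the called genes differed by less than 1.5-fold, with 2982 higher in C. rubella and 2548 lower. Between 1.5- and 2-fold there were 1888 higher and 1696 lower. With TMM scaling the balance was the other way at larger differences: 1337 higher and 1563 lower at 2 to 4-fold, 494 and 614 at 4 to 16-fold, and 297 and 411 at over 16-fold. At least 2-fold, 2128 genes (9.18%) were higher and 2588 (11.2%) lower, so that lower genes made up 54.9% of the called 2-fold differences. Of the 9356 genes that were not called, 7931 had fitted folds under 1.5-fold. Below 2-fold the balance depends on the scaling: 4870 genes were higher and 4244 lower with TMM, against 4232 and 4874 with RLE and 4362 and 5009 with DESeq2, so that lower genes led at both sizes under those settings. The plot of genes by size of difference shows the TMM values.

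**Figure D1:**
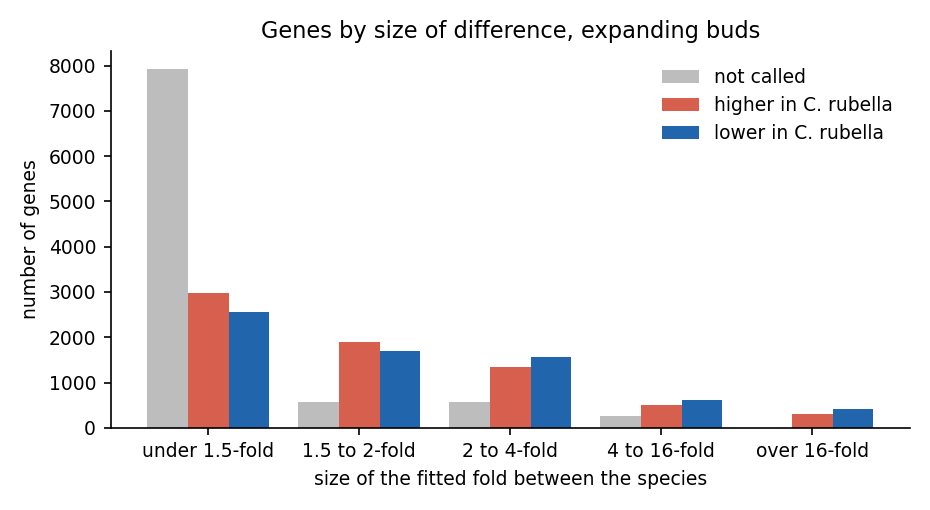
Number of genes (y axis) in 5 classes of fitted fold between C. rubella and C. grandiflora expanding buds (x axis), as bars for genes not called, called higher in C. rubella and called lower in C. rubella, with TMM scaling. Under 2-fold the bars for higher genes are taller (2982 and 1888 against 2548 and 1696), which turns under RLE (4232 against 4874 in all), and above 2-fold the bars for lower genes are taller (1563, 614 and 411 against 1337, 494 and 297).

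The stage group that stood furthest from the rest was the one of expanding buds itself. Of the 2070 expanding-preferential genes, 66.9% were lower in C. rubella, against 29.5% of all genes, and 12.2% were higher, against 30.2%. Their median log2 fold was -0.71 with an interquartile range of -1.16 to -0.19, so that the whole middle of the group lay below 0. At least 2-fold, 662 of them were lower and 179 higher. No other stage group had its whole interquartile range on 1 side of 0. In a bulk library, fewer cells of a type and less RNA per cell of that type cannot be told apart. How closely the sampled buds of the species matched in maturity was not tested.

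Among expanding-preferential genes the lower level in C. rubella was present at nearly every level of expression in C. orientalis expanding buds, taken as CPM with TMM factors and without correction for gene length. Of 15 genes over 1000 CPM, 13 were lower, 0 were higher and 2 were not called (median log2 fold -0.92). At 100 to 1000 CPM 207 of 256 were lower and 8 higher (median -0.69), at 10 to 100 CPM 687 of 886 lower and 50 higher (median -0.74), and at 1 to 10 CPM 405 of 644 lower and 82 higher (median -0.77). The 269 genes under 1 CPM went the other way, with 113 higher and 73 lower and a median of 0.44. That class consists of genes chosen for a low level in C. orientalis.

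The difference was somewhat larger where the stage preference was stronger. Expanding-preferential genes whose smaller fold over the other C. orientalis stages was 2 to 4-fold had a median log2 fold of -0.56 between the species, with 476 of 750 lower in C. rubella. At 4 to 16-fold the median was -0.74, with 350 of 526 lower, and at over 16-fold it was -0.79, with 559 of 794 lower. The higher genes numbered 85, 59 and 109 in the same order.

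The tilt reached beyond the stage-preferential genes into those with small changes between the bud stages. Genes were binned by their log2 fold between expanding and dividing buds in C. orientalis, without regard to seedlings. Among 9199 genes slightly lower in expanding buds (log2 fold from -1 to 0), 45.1% were higher in C. rubella and 15.6% lower. Among 7449 genes slightly higher in expanding buds (0 to 1), the shares turned to 20.9% higher and 36.4% lower. The median log2 fold between the species was 0.22 in the first of these bins and -0.12 in the second. Both kept their sign under RLE scaling, at 0.15 and -0.19.

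Toward genes more strongly biased to expanding buds, the shift grew and then levelled off. The median species log2 fold was -0.40 among 1553 genes in the bin from 1 to 2, -0.58 among 693 in that from 2 to 3, -0.71 among 378 from 3 to 4, -0.57 among 288 from 4 to 5, and -0.79 among 803 at 5 or more. Toward genes biased to dividing buds no such trend appeared. Medians there were 0.23 from -2 to -1, -0.22 from -3 to -2, -0.07 from -4 to -3 and 0.13 under -4, with wide interquartile ranges, and the bin from -4 to -3 turned to 0.07 without C. grandiflora replicate 2. At these low levels in expanding buds fewer genes were called: 408 of 570 genes in the lowest bin were not.

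**Figure D2:**
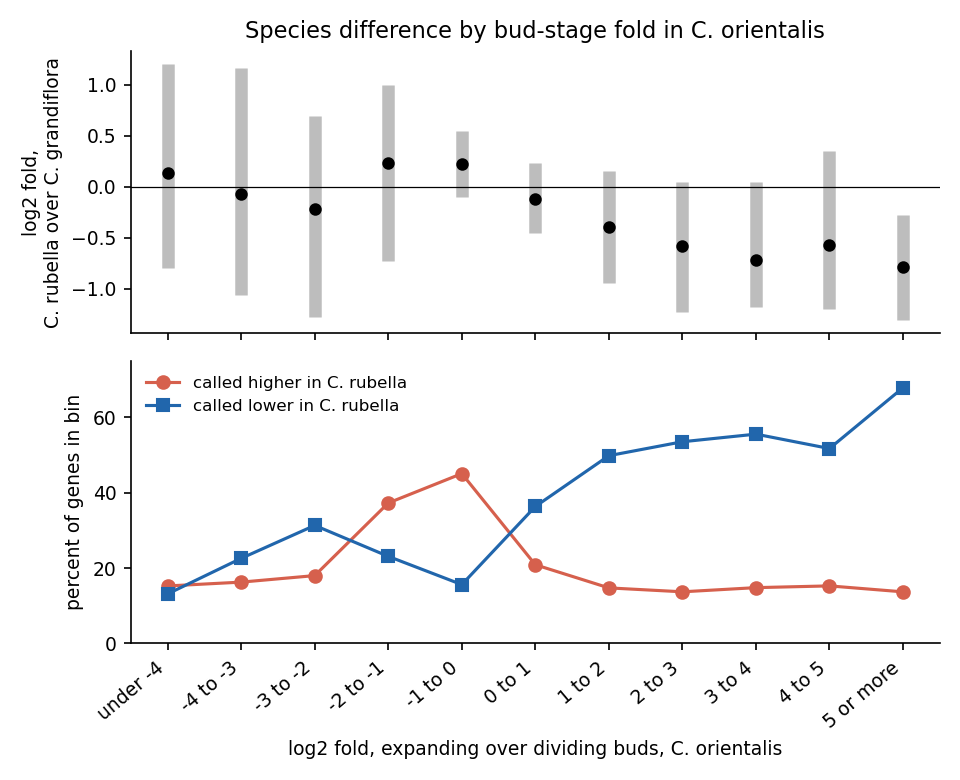
Genes binned by log2 fold of expanding over dividing buds in C. orientalis (x axis). The upper panel gives the median (point) and interquartile range (bar) of the log2 fold of C. rubella over C. grandiflora in expanding buds, and the lower panel the percent of genes called higher or lower in C. rubella; the medians are 0.22 and -0.12 on the sides of 0 and -0.79 at 5 or more, where 67.9% of genes were lower.

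Other stage groups differed less. Of 3704 seedling-preferential genes, measured here in buds, 1264 (34.1%) were higher in C. rubella and 691 (18.7%) lower, and the median log2 fold was 0.18. The share of higher genes was larger among the 2049 of them with at least 1 CPM in C. orientalis expanding buds, with 969 (47.3%) higher, 377 (18.4%) lower and a median of 0.28. Genes of both bud stages had 587 of 1513 (38.8%) lower and 403 (26.6%) higher, with a median of -0.15. The 290 genes low in expanding buds, those at least 2-fold below both other stages without a called 2-fold difference between these, had 94 (32.4%) higher and 61 (21.0%) lower, against 30.2% and 29.5% of all genes, with a median of 0.11 that was 0.04 under RLE.

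Even genes, 10410 in number, were the group with the narrowest spread, with an interquartile range of -0.24 to 0.36. In C. rubella 3418 were higher and 2547 lower, for a median of 0.06 on the log2 scale, but 2879 higher and 3104 lower with a median of -0.01 under RLE, so their direction depends on the scaling. Called 2-fold differences were few among them, 545 higher and 392 lower, or 5.24% and 3.77% against 9.18% and 11.2% of all genes. The remaining 3612 genes, which met none of the definitions, had 1146 (31.7%) higher and 1150 (31.8%) lower, near the shares of all genes.

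**Figure D3:**
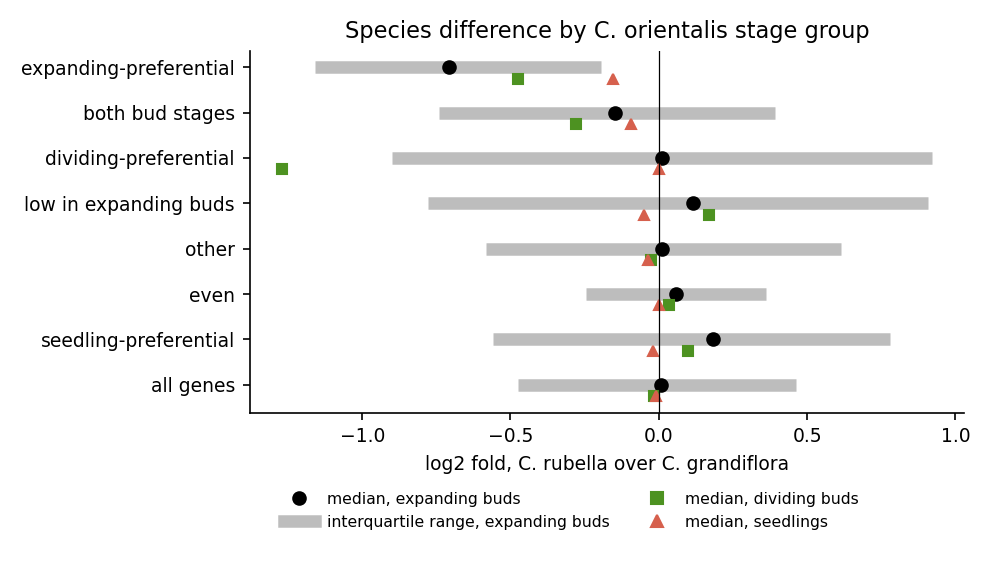
Log2 fold of C. rubella over C. grandiflora (x axis) for genes grouped by their stage profile in C. orientalis (y axis). Black points and grey bars are the median and interquartile range in expanding buds, and squares and triangles are the medians in dividing buds and seedlings; expanding-preferential genes have a median of -0.71 in expanding buds, and dividing-preferential genes 0.01 in expanding but -1.27 in dividing buds.

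The expanding-preferential genes took a much smaller part of the reads in C. rubella. They held 18.5%, 17.8% and 19.1% of the counts on tested genes in the 3 C. grandiflora libraries and 10.8%, 11.2% and 10.8% in the 3 C. rubella libraries. All C. rubella libraries lay below all C. grandiflora libraries, and the mean fell by 7.56 percentage points, from 18.5% ± 0.640 to 10.9% ± 0.210 (SD, n = 3 each). A small number of abundant genes, which also held most of the group's reads in both species, made up most of that gap. The 136 expanding-preferential genes among the 1000 with the most counts in C. orientalis expanding buds went from 10.8% ± 0.321 to 5.81% ± 0.145 of the counts, a drop by 4.97 points. The other 1934 went from 7.70% ± 0.323 to 5.10% ± 0.0711, and dropped by 2.60 points. The 15 genes over 1000 CPM alone held 4.02% ± 0.104 in C. grandiflora and 2.01% ± 0.0540 in C. rubella. In C. orientalis expanding buds the whole expanding-preferential group held 12.5% ± 0.130 of the counts, also below C. grandiflora. Its median log2 fold of C. orientalis over C. grandiflora was -0.44. A lower level than in C. grandiflora was thus not particular to C. rubella.

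Reads were also less concentrated in C. rubella. The 100 genes with the most counts in each library held 15.3% to 15.7% of gene counts in C. grandiflora and 12.2% to 12.4% in C. rubella. Since shares add up to the whole, other groups took larger shares: even genes held 50.1% ± 0.735 in C. grandiflora and 54.8% ± 0.377 in C. rubella, and seedling-preferential genes 9.25% ± 0.390 and 12.9% ± 0.132. Genes of both bud stages held 9.70% ± 0.180 and 8.48% ± 0.159. Dividing-preferential genes held a small share, at 1.36% ± 0.118 and 1.56% ± 0.00849, and their 3 libraries of each species did not overlap either. Relative to C. grandiflora their share was 1.14 times as large in C. rubella, against 1.09 times for even genes.

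**Figure D4:**
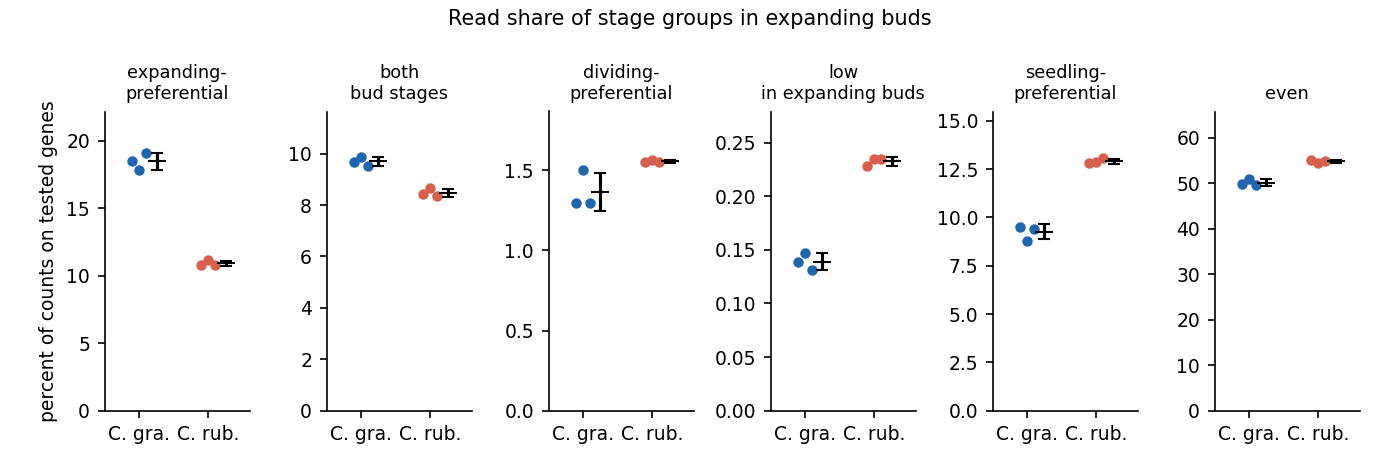
Percent of counts on tested genes (y axis, starting at 0 and scaled for each panel) held by 6 stage groups in each of the 3 C. grandiflora (blue) and 3 C. rubella (red) expanding bud libraries, with the mean and SD in black. The expanding-preferential share is 17.8% to 19.1% in C. grandiflora and 10.8% to 11.2% in C. rubella, and the libraries of the species do not overlap in any panel.

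Dividing and expanding buds were sampled in separate libraries, so the species difference could be set beside that of the earlier stage. Of 6998 genes higher in C. rubella expanding buds, 4138 (59.1%) were also called higher in dividing buds, against 24% of all genes, and 369 were called lower. Of 6832 genes lower in expanding buds, 3892 (57.0%) were also lower in dividing buds, against 27.7% of all genes, and 252 were higher. In seedlings the shares called the same way were 35.1% and 36.1%, against 20.1% and 23% of all genes called in these directions there. Across all tested genes, which are not independent replicates and which share gene models, the log2 folds in expanding buds correlated with those in dividing buds at r = 0.711 and with those in seedlings at r = 0.490.

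A sizeable part of the large differences was present at every stage. Among the 2128 genes at least 2-fold higher in expanding buds, 824 (38.7%) were called higher in dividing buds and seedlings as well. Among the 2588 at least 2-fold lower, 822 (31.8%) were called lower at both. In seedlings alone 20.1% of all tested genes were called higher and 23% lower, so the all-gene shares at both stages cannot exceed these. How well the gene models capture reads of each species was not tested. At the other end, 360 (16.9%) of the 2-fold higher and 536 (20.7%) of the 2-fold lower genes were called at neither of the other stages. The share of all tested genes called at neither was not computed.

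Whether the difference itself changed between stages was asked with interaction contrasts. Between expanding and dividing buds edgeR's quasi-likelihood test called 5330 genes (23%) at an adjusted p under 0.05, 3373 (14.5%) with a difference more toward C. rubella in expanding buds and 1957 (8.44%) with one more toward C. grandiflora. Between expanding buds and seedlings it called 8826 (38.1%), 5090 (22%) and 3736 (16.1%) in the same order. Genes at least 2-fold apart in expanding buds, with both interactions called in the same direction as that difference, numbered 411 higher (1.77%) and 307 lower (1.32%). A gene with a difference of the opposite sign at another stage, even a larger one, also meets this definition.

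The higher and lower genes of that set had unlike stage profiles in the third species. Of the 307 lower genes, 94 (30.6%) were expanding-preferential in C. orientalis, against 8.93% of all tested genes, and 42 (13.7%) were even, against 44.9%. The 2588 genes at least 2-fold lower, from which these were drawn, leaned the same way, with 662 expanding-preferential and 392 even. Of the 411 higher genes, 16 (3.89%) were expanding-preferential, while 109 (26.5%) were seedling-preferential and 84 (20.4%) dividing-preferential, against 15.97% and 6.84% of all tested genes. The 2128 genes at least 2-fold higher, from which they were drawn, held 179 expanding-preferential, 515 seedling-preferential and 250 dividing-preferential genes.

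The dividing-preferential genes were the group in which the bud stages disagreed most. At the dividing stage C. rubella had lower levels for 67.0% of the 1587, the median log2 fold being -1.27. In expanding buds 411 (25.9%) were lower and 420 (26.5%) higher, with a median of 0.01 that turned to -0.02 under RLE. The interaction was called for 659 of them (41.5%, against 14.5% of all genes) as more toward C. rubella in expanding buds and for 44 (2.77%, against 8.44%) the other way. Many of these genes were near the limit of detection in expanding buds, but the 573 with at least 1 CPM in C. orientalis expanding buds showed 339 and 18 interaction calls, with 269 higher and 153 lower in expanding buds and a median of 0.31. The contrast with the dividing stage was smaller among these 573, of which 295 (51.5%) were lower in dividing buds, with a median of -0.42.

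A minority of the expanding-preferential genes lower in C. rubella were also called lower at each of the other stages, taken 1 at a time. Of the 1385 that were lower in expanding buds, 563 (40.7%) were also called lower in dividing buds, against 27.7% of all genes and 57.0% of all genes lower in expanding buds. In seedlings 331 (23.9%) were also lower, near the 23% of all genes called lower there. The median log2 fold of all 2070 expanding-preferential genes was -0.71 at the expanding stage, -0.47 at the dividing stage and -0.15 for seedlings. These genes were by definition at least 2-fold weaker at those other stages in C. orientalis. A missing call there thus does not show that the difference was absent. With a stage preference of 2 to 4-fold, 52.5% of the lower genes were also called lower in dividing buds, against 25.6% at over 16-fold. The medians in dividing buds over all genes of these classes were -0.27 and -0.64 in the same order. Of all 2070, the interaction between bud stages was called for 386 (18.6%, against 8.44% of all genes) as more toward C. grandiflora in expanding buds. It was called for 300 (14.5%, the same share as over all genes) the other way. The median log2 fold of expanding over dividing buds in this group was 3.74 in C. grandiflora and 3.86 in C. rubella.

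Some genes had reads in the expanding buds of C. rubella but none in those of C. grandiflora, or the reverse. Counted over all 26521 identifiers, 76 had at least 10 counts in each C. rubella library and 0 in each C. grandiflora library, and 61 had the reverse. Of the 76, 26 had no read in any of the 9 C. grandiflora libraries of the 3 stages, and of the 61, 22 had none in any of the 9 C. rubella libraries. In C. orientalis expanding buds, 13 of the 76 had at least 10 counts in each library and 37 had 0 in each, while of the 61 these numbers were 20 and 12. Most of these genes were weakly counted where present, with medians of 39 and 28 counts a library.

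The 2 genes in each direction with the largest fitted folds, among called genes with a mean of at least 5 CPM in the higher species, were all of this kind. Carubv10017207m.g stood at 57.9, 64.4 and 64.6 CPM in the 3 C. rubella libraries and had 0 counts in all 3 of C. grandiflora. With C. grandiflora set to a floor of 3 counts over the group, it was at least 1905-fold higher in C. rubella (adjusted p = 8.96e-20 by edgeR's quasi-likelihood test). It was at 51.9 ± 0.857 CPM in C. rubella dividing buds and 32.9 ± 2.36 CPM in seedlings (SD, n = 3), with 2 and 1 counts in total in C. grandiflora, and in C. orientalis it had 3 or 4 counts in total at each stage. It was therefore near absent from the files of both other species at every stage.

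Carubv10002575m.g was at 59.3, 52.4 and 56.8 CPM in C. rubella expanding buds and at 0 counts in C. grandiflora, at least 1716-fold higher against the same floor of 3 counts over the group (adjusted p = 4.57e-20, edgeR). Unlike the first gene it was also counted in C. orientalis, at 33.98, 27.5 and 27.2 CPM in expanding buds. Seedlings of C. rubella had 37.9 ± 2.35 CPM and those of C. grandiflora 0.223 ± 0.139 CPM (SD, n = 3), so that the gap was large at each stage.

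Carubv10022460m.g was lower in C. rubella, at 0 counts in all 3 expanding bud libraries against 22.6, 21.3 and 19.7 CPM in C. grandiflora. It was at least 779-fold lower with C. rubella at the floor of 3 counts over the group (adjusted p = 1.09e-12, edgeR). C. rubella also had 0 counts in dividing buds, where C. grandiflora stood at 13.8 ± 1.22 CPM (SD, n = 3), and in seedlings, where C. grandiflora had 7 counts in total. C. orientalis had 0 counts in expanding and dividing buds too.

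Carubv10012410m.g differed from the other three in being counted mainly at this stage. It stood at 23.8, 5.19 and 8.39 CPM in C. grandiflora expanding buds, a wide spread among replicates, and at 0 counts in C. rubella, at least 457-fold lower against the floor of 3 counts over the group (adjusted p = 2.60e-10, edgeR). Without C. grandiflora replicate 1 that bound was 249-fold. C. orientalis, in which it is expanding-preferential, had 3.65, 3.96 and 4.53 CPM. Dividing buds of C. grandiflora had 0.319 ± 0.181 CPM and those of C. rubella 0.0352 ± 0.0376 CPM (SD, n = 3), and in seedlings both species had at most 2 counts in total.

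**Figure D5:**
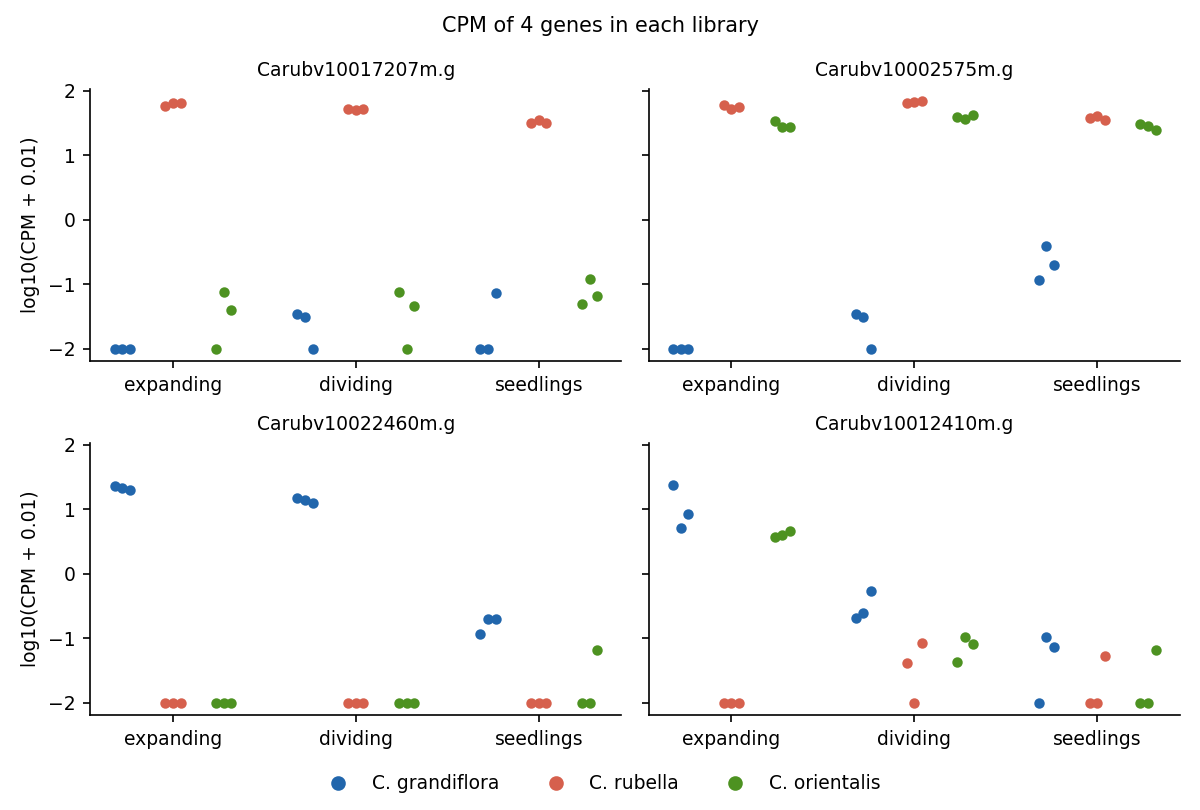
Level of 4 genes in every library, as log10 of CPM plus 0.01 (y axis), by stage (x axis) and species (colour); a point at -2 is a library with 0 counts. The upper genes are high in C. rubella at all 3 stages, the lower left gene is high in C. grandiflora buds, and the lower right gene is high in expanding buds of C. grandiflora and C. orientalis.

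Replicates of C. grandiflora expanding buds varied more than those of C. rubella. The biological coefficient of variation fitted within the group was 0.109 in C. grandiflora and 0.0592 in C. rubella. Among 18839 genes with a mean of at least 1 CPM, 71.7% had the larger SD of log2(CPM + 0.5) in C. grandiflora, and the median SD was 0.124 against 0.0769. At the other stages the species were closer: 54.7% of these genes had the larger SD in C. grandiflora in dividing buds, with median SDs of 0.0911 and 0.0818, and 54.0% in seedlings, with 0.169 and 0.154. Counts of C. grandiflora replicate pairs differed by a chi-square of 14.4 to 17.9 per degree of freedom and those of C. rubella pairs by 5.14 to 8.36, and none of these pairs matched within sampling noise. With 3 libraries a group the difference in spread was not tested.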

How the data were processed

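Per the submitters' processing notes, the authors used Trimmomatic and HTSeq, and the deposited tables list unnormalized read counts for every gene of a library. The sources used here give no version, aligner, build, annotation or strand setting. Overlapping genes on opposite strands and near-identical copies are therefore uncertain. The 5 summary rows entered neither library sizes nor tests.

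Counts of all 27 libraries were fitted in R 4.3.3 with edgeR 4.0.16 as 9 group means (filterByExpr, TMM, 18 residual degrees of freedom) and tested by the quasi-likelihood F-test with Benjamini-Hochberg adjustment over 23186 genes. Genes were called at an adjusted p under 0.05. Standard errors are the log2 fold divided by the square root of F.

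The members, groups and tests were chosen with earlier results of these data known. The planned 43 lists of gene and marker names were not used, since 0 of them matched an identifier. Named genes are the 2 in each direction with the largest fitted log2 fold among called genes with at least 5 CPM in the higher group. Alternatives were RLE factors, no filter, DESeq2 1.42.0, the compared groups alone, a replicate block and leaving out each library. Folds with a group at 0 counts use a floor of 3 counts over that group, which covers counting error only.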

Additional observations from a re-analysis of the deposited data

Results flagged for a closer look

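Species differences that depended on the stage were found by interaction contrasts in edgeR's quasi-likelihood test, with Benjamini-Hochberg adjusted p under 0.05. Between expanding and dividing buds, the C. rubella minus C. grandiflora log2 difference was higher in expanding buds for 3373 genes and lower for 1957. Between expanding buds and seedlings it was higher in expanding buds for 5090 genes and lower for 3736. Of the dividing-preferential genes, 659 had a higher and 44 a lower difference in expanding than in dividing buds.

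For 2 of the 4 named genes an interaction was called. For Carubv10002575m.g the fitted log2 difference was 6.11 higher in expanding buds than in seedlings (edgeR adjusted p = 7.54e-05), where C. grandiflora had 0 counts in expanding buds and 9 counts in seedlings. For Carubv10012410m.g the fitted log2 difference between expanding and dividing buds was -8.69 (edgeR adjusted p = 0.0205), where C. rubella had 0 counts in expanding and 4 in dividing buds. Both fitted values rest on groups with few or no counts and depend on the prior count of the fit.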

How the results depend on the processing

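Every count of called genes recomputed under the 5 alternatives stayed within 1.5 times the reported count (90 of 90), as did every count with 1 library left out (108 of 108), and the 4 named genes kept their direction and call in all 44 refits. With the compared groups alone, the adjusted p of these 4 genes was weaker, from 9.21e-10 to 7.68e-05 by edgeR's quasi-likelihood test. Alternatives for the stage groups were added after the data were seen. The groups and bins themselves were kept as formed in the TMM fit of all 27 libraries and were not formed anew under any setting. With any of the 6 libraries left out, called genes ranged from 6370 to 6575 higher and 6084 to 6603 lower, expanding-preferential genes from 223 to 246 higher and 1281 to 1350 lower, and interactions with dividing buds from 4388 to 5286. Some balances near even turned. All genes had 6147 higher and 7713 lower under RLE, 6257 and 7822 under DESeq2 and 6504 and 6603 without C. grandiflora replicate 2. Even genes had 2879 and 3104 under RLE, and 2969 and 3208 under DESeq2. Dividing-preferential genes had 394 and 435 under RLE, 384 and 432 under DESeq2, 377 and 402 without C. grandiflora replicate 1, 376 and 383 without its replicate 3, and 375 and 382 without C. rubella replicate 3. Expanding-preferential genes kept a median log2 fold of -0.78 to -0.67 over all settings. Replicate numbers did not pair the libraries: deviations of libraries with the same number correlated at 0.0415, -0.0689 and 0.0276. With the replicate block 7011 genes were higher and 6800 lower, and 13650 genes were called with and without the block. The planned recomputation for gene name lists was not run, since no list matched. Genes under about 1 CPM limit what can be said of dividing-preferential genes in expanding buds.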
